A study of Mus musculus with 42 samples.

Results

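The transcripts of 8 genes of the chromatin response to DNA double-strand breaks, H2ax, Mdc1, Rnf8, Rnf168, Trp53bp1, Rif1, Paxip1 and Usp28, were followed through 42 Affymetrix arrays of transformed mouse pre-B lines. Every probe set whose platform annotation gives one of these 8 symbols was taken. This gave 20 of the 45101 probe sets on the array: 1 each for H2ax, Mdc1, Rnf8 and Usp28, 2 for Rnf168, 4 each for Rif1 and Paxip1, and 6 for Trp53bp1. Probe sets were tested where at least 3 arrays had them above the array-wide median signal. All 20 member probe sets met this condition and stood among the 28217 tested.

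The lines were of 7 genotypes with 3 lines each. Atm-/- lines lacked the break-signalling kinase Atm, Scid lines carried the Scid mutation of Prkdc (DNA-PKcs), and Mre11A/A lines carried a hypomorphic Mre11 allele. The 53bp1-/-, H2ax-/- and Mdc1-/- lines each lacked 1 of the 8 genes studied here, and WT lines had no mutated damage-response gene. Each line gave an irradiated array, 2 h after 1 Gy of γ-rays, and an untreated array, taken at the same time after a mock exposure. Lines of all 7 genotypes, WT included, came from bone marrow of mice aged 3 to 5 weeks that carried the Bcl2 transgene driven by the immunoglobulin heavy chain enhancer, and all were transformed with the v-abl retrovirus pMSCV-v-abl. Every comparison was therefore made in cells with an oncogenic kinase and an added survival gene. The lines are labelled as biological replicates. Whether each line is 1 clone, or each came from a different mouse, is not given in the sources used here, so p-values measure the spread between these lines.

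H2ax is the histone variant that kinases such as Atm phosphorylate in the chromatin around a break. Mdc1 binds the phosphorylated histone and recruits the ubiquitin ligase Rnf8, a second ligase, Rnf168, extends the ubiquitin marks on the surrounding nucleosomes, and 53bp1 (gene Trp53bp1) reads those marks together with histone methylation. Rif1 and the Paxip1 product (PTIP) bind phosphorylated 53bp1 and limit resection of the DNA ends, and Usp28 is a deubiquitinase that associates with 53bp1. Most of this cascade runs through protein modification, and the arrays measured transcript only. The comparisons ask whether transcripts of the remaining factors were higher where one factor was missing, and whether any of them changed after irradiation.

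The comparison of partners turns on one pair of genes, the missing Mdc1 and the higher Trp53bp1, so the 250 bases before the annotated start of each are shown. The sequences are from RefSeq, build GRCm38.p6, where entries matched 6 of the 8 genes by symbol, all but H2ax and Rif1. Each is written 5′ to 3′ on the gene's own strand, and capitals mark matches to the motifs searched. The Mdc1 window is chr17:35841248-35841497 on the plus strand and the Trp53bp1 window is chr2:121271408-121271657 on the minus strand.
Mdc1: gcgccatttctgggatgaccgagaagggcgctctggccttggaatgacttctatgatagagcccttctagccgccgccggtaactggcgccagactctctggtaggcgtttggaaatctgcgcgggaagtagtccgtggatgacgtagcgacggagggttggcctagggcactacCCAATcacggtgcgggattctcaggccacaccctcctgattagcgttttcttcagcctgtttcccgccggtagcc
Trp53bp1: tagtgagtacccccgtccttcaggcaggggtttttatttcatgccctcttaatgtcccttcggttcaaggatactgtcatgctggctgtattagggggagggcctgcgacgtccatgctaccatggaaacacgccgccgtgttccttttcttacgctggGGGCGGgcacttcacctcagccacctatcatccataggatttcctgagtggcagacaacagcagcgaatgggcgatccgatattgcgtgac

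Both strands were searched for CCAAT, for GGGCGG and for TTTNGCGC, and no matches overlapped. The Mdc1 window, 59.2% G and C, held 1 CCAAT on the plus strand of the gene, 75 bases before the start, and neither of the other motifs. The Trp53bp1 window, 54.4% G and C, held 1 GGGCGG, 91 bases before the start, and neither CCAAT nor TTTNGCGC. Of 32851 promoter windows of the same length, 33.8% held CCAAT, 32.7% held GGGCGG and 1.13% held TTTNGCGC. The 2 windows shared none of the 3 motifs.

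The deposited values are linear MAS5 signals, in which the trimmed mean of each array had been set to 500. Median signals of the arrays were 62.6 to 116, and the third highest was 82.9. A probe set near the array median therefore carries little signal. Of 7 pre-B markers, all exceeded the array median on all 42 arrays, with a summed signal of 45310 to 86585, against summed signals of 51.3 to 217 for T-cell markers, 150 to 700 for myeloid, 11.5 to 171 for erythroid and 57.5 to 366 for stromal markers. The T-cell markers Cd3e, Cd3d and Cd4 exceeded the median on 0 arrays, and Cd8a did so on 36. In RNA from bulk cultures, fewer cells with a transcript and less transcript per cell cannot be told apart.

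The targeted genes were examined first, because they check the labels. H2ax signal in H2ax-/- lines was 107, 73.9 and 77.7 after irradiation and 87.9, 18.7 and 51.8 untreated, against 12982, 10974 and 8328 in irradiated and 11189, 11345 and 9675 in untreated WT lines. All 6 H2ax-/- arrays were far below all 6 WT arrays, and their values were near the median signal of their arrays or, at 18.7 against a median of 68.9 on the untreated array of line 2, well below it. On the log2(signal + 16) scale, the untreated difference from WT was -7.42 (SE 0.24, n = 3 each, limma with Benjamini-Hochberg adjustment over all probe sets, adjusted p = 2.2e-21). The constant of 16 understates differences of low signals.

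Mdc1, the adaptor that binds phosphorylated H2ax, had signals in Mdc1-/- lines 1, 2 and 3 of 3.52, 129 and 20.2 after irradiation and 13.4, 176 and 22.0 untreated, against 383, 336 and 462 in irradiated and 407, 446 and 476 in untreated WT lines. The groups did not overlap, but Mdc1-/- line 2 stood above lines 1 and 3 on both arrays. The untreated difference from WT was -2.94 (SE 0.45, adjusted p = 4.29e-05), and it was -3.78 without the untreated array of line 2. The Trp53bp1 differences in Mdc1-/- lines are therefore also given without that array. Without it, Rif1 1437179_at in Mdc1-/- lines still passed against WT (-0.93).

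The third targeted gene went less far. Trp53bp1 signal on the probe set 1426957_at was 490, 352 and 356 in irradiated and 505, 295 and 361 in untreated 53bp1-/- lines, against 825, 681 and 725 in irradiated and 903, 599 and 664 in untreated WT lines. Each 53bp1-/- array lay below each WT array, but signal remained several times above the array median. Untreated 53bp1-/- and WT arrays did not overlap, in either direction, for 25.8% of all probe sets. Over the untreated arrays the difference was -0.88 (SE 0.17, adjusted p = 0.0011), a ratio of 0.542. Differences on 1426956_a_at and 1435609_at were -0.63 (adjusted p = 0.020) and -1.14 (adjusted p = 0.0227). Both of these calls were lost without the untreated arrays of WT line 1, 53bp1-/- line 2 or 53bp1-/- line 3, with adjusted p of up to 0.172 and 0.159. In fits on the 2 groups alone none of the 3 probe sets passed, with adjusted p of 0.0962 on 1426957_at, 0.153 on 1426956_a_at and 0.147 on 1435609_at. The 53bp1-/- lines thus kept Trp53bp1 transcript signal, and the position of the probe sets relative to the mutated part of the gene is not given in the sources used here.

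**Figure D1:**
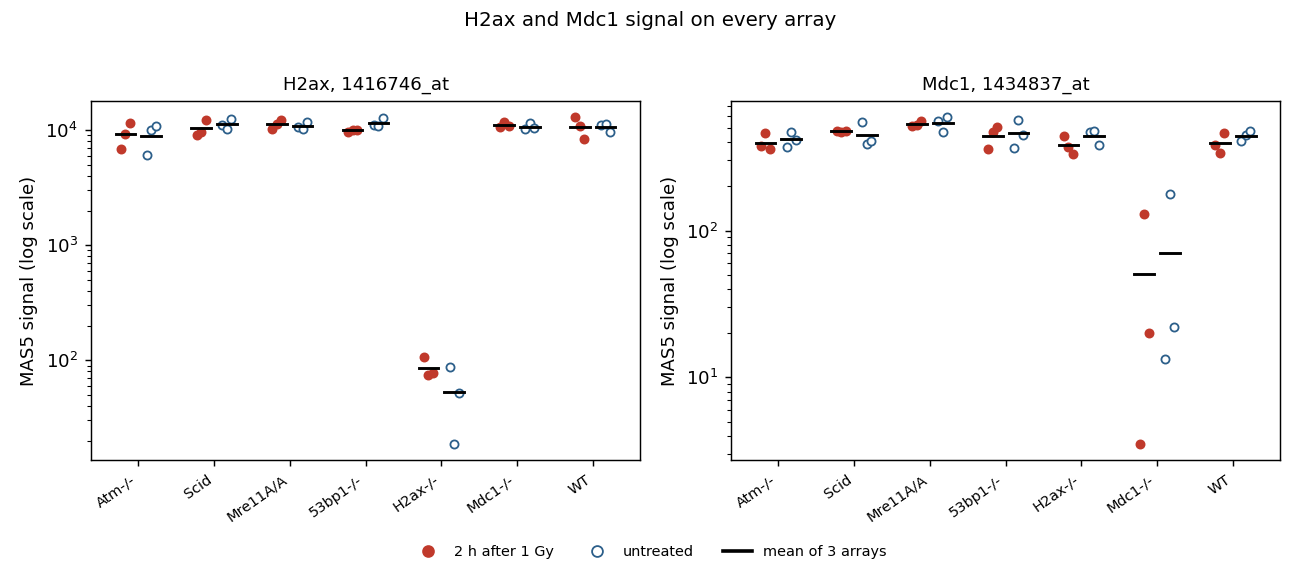
MAS5 signal (log axis) of H2ax and Mdc1 on each array, by genotype, with irradiated arrays left of untreated arrays and a bar at each group mean. H2ax lies at 18.7 to 107 in H2ax-/- lines and Mdc1 at 3.52 to 176 in Mdc1-/- lines, both below every other genotype.

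For the partners of each missing factor on untreated arrays, few differences from WT passed the test, and of the partners only Trp53bp1 in Mdc1-/- lines was called higher. Of 120 differences between an untreated mutant and untreated WT over the 20 probe sets, 13 passed, 3 of them upward and 10 downward, and 29 passed 0.05 before adjustment. By genotype, 0 of 20 passed in Atm-/- lines (0.106% of all probe sets tested), 0 in Scid (0.514%), 2 in Mre11A/A (4.99%), 4 in 53bp1-/- (5.23%), 3 in H2ax-/- (5.72%) and 4 in Mdc1-/- lines (7.53%). Leaving out the missing gene itself, 1 of 14 partner probe sets passed in 53bp1-/- lines, 2 of 19 in H2ax-/- lines and 3 of 19 in Mdc1-/- lines. Of these, 0 were higher in 53bp1-/- lines (2.5% of all probe sets were), 0 in H2ax-/- lines (3.03%) and 2 in Mdc1-/- lines (3.69%). Both of the higher ones were probe sets of Trp53bp1. The median partner difference was -0.002 in 53bp1-/-, 0.0007 in H2ax-/- and 0.0007 in Mdc1-/- lines, beside medians over all probe sets of -0.02, 0.03 and 0.005. On the irradiated arrays of the same lines, a comparison added after the untreated values were seen, 23 of 120 differences from WT passed (15 higher and 8 lower), beside 0.634% of all probe sets in Atm-/-, 0.351% in Scid, 8.35% in Mre11A/A, 8.86% in 53bp1-/-, 6.75% in H2ax-/- and 12.1% in Mdc1-/- lines. The 23 are a total over genotypes and do not compare with any 1 of these shares. They include the missing genes in their own lines, and all fall outside Atm-/- and Scid lines. Partners called higher in lines missing a factor were Trp53bp1 in Mdc1-/-, Rif1 1442939_at in 53bp1-/- and Mdc1-/-, and Paxip1 in all 3 genotypes.

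**Figure D2:**
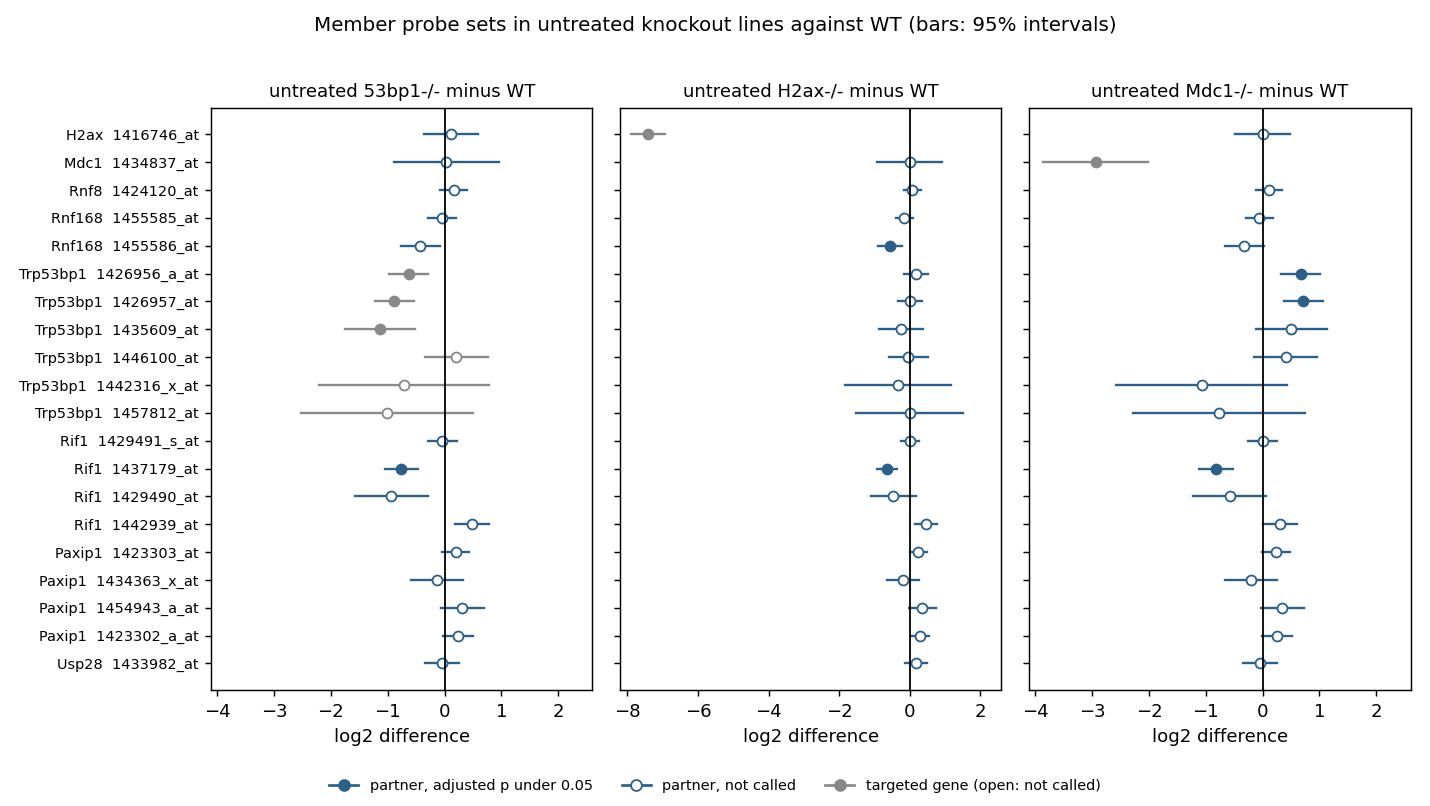
Difference from WT of untreated 53bp1-/-, H2ax-/- and Mdc1-/- lines for each member probe set, on the log2(signal + 16) scale, with 95% confidence intervals from limma and filled points where the adjusted p is under 0.05. Apart from the missing genes, most intervals span 0. The 2 filled points above 0 are Trp53bp1 in Mdc1-/- lines, 1426956_a_at at 0.67 and 1426957_at at 0.72.

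H2ax showed no detectable difference where its readers were missing. Untreated signals were 11128, 10974 and 12743 in 53bp1-/- and 10250, 11534 and 10370 in Mdc1-/- lines, against 11189, 11345 and 9675 in WT lines. These groups overlapped, with differences from WT of 0.11 in 53bp1-/- and -0.001 in Mdc1-/- lines (adjusted p = 0.863 and 0.999). The pooled spread of this probe set includes the low H2ax-/- values, so intervals were also taken from fits on the arrays of the 2 groups alone. Those 95% intervals ran from -0.12 to 0.35 in 53bp1-/- and from -0.23 to 0.22 in Mdc1-/- lines. The lowest H2ax signals among lines with the gene were 6867 and 6036 in Atm-/- line 1, irradiated and untreated.

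Mdc1 signal was likewise near its WT level in the absence of H2ax. It was 472, 475 and 382 in untreated H2ax-/- lines and 367, 565 and 447 in untreated 53bp1-/- lines, against 407, 446 and 476 in untreated WT lines, with wide overlap. The difference from WT was -0.004 in H2ax-/- and 0.03 in 53bp1-/- lines, with 95% intervals in fits on the 2 groups alone of -0.34 to 0.33 and -0.39 to 0.45. The highest Mdc1 levels were in Mre11A/A lines, at 560, 469 and 592 untreated, and their difference from WT was 0.27 (adjusted p = 0.834).

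Rnf8, the ligase recruited by Mdc1, varied little. Its 42 signals lay between 636 and 917. Untreated means were 781 ± 86.8 in 53bp1-/-, 736 ± 69.8 in H2ax-/- and 753 ± 26.1 in Mdc1-/- lines, against 695 ± 24.0 in WT lines (SD, n = 3 each). The differences of 0.16, 0.08 and 0.11 did not pass the test, and the 95% intervals ended at 0.39, 0.31 and 0.35. The largest Rnf8 difference from WT was 0.25 in Mre11A/A lines, at 828 ± 19.8 (adjusted p = 0.253).

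The 2 probe sets of Rnf168, the ligase that extends the ubiquitin mark, did not show the same thing. On 1455586_at, H2ax-/- lines had signals of 144, 146 and 199 irradiated and 175, 144 and 129 untreated, against 251, 209 and 180 in irradiated and 271, 229 and 184 in untreated WT lines. The untreated groups did not overlap, as for 28.1% of all probe sets, whereas the irradiated ones did. The untreated difference was -0.55 (SE 0.17, adjusted p = 0.044), and on irradiated arrays it was -0.36 (adjusted p = 0.219). The same probe set differed from WT by -0.43 in 53bp1-/- and -0.33 in Mdc1-/- lines, neither of which passed. On 1455585_at, the differences were -0.16 in H2ax-/-, -0.05 in 53bp1-/- and -0.06 in Mdc1-/- lines, and none passed. The call for H2ax-/- lines was lost under 6 of 13 alternative settings and without any of 9 single arrays.

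Trp53bp1 was the 1 partner called higher against WT on untreated arrays where another factor was missing. On 1426956_a_at, Mdc1-/- lines had 2352, 2013 and 2357 irradiated and 2574, 2164 and 2732 untreated, against 1722, 1176 and 1278 in irradiated and 1849, 1434 and 1420 in untreated WT lines. All 6 Mdc1-/- arrays exceeded all 6 WT arrays. Untreated Mdc1-/- and WT arrays did not overlap, in either direction, for 28.8% of all probe sets. The share over both treatments is not given here. On 1426957_at, Mdc1-/- lines had 1090, 1039 and 1144 irradiated and 1151, 1088 and 1311 untreated, again above every WT array and above every array of the other 5 genotypes.

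The untreated differences from WT were 0.67 on 1426956_a_at (95% interval 0.33 to 1.01, adjusted p = 0.0103) and 0.72 on 1426957_at (0.37 to 1.06, adjusted p = 0.00637), ratios of 1.59 and 1.64. The irradiated arrays gave 0.70 (adjusted p = 0.0049) and 0.55 (adjusted p = 0.031). Without the untreated array of Mdc1-/- line 2, whose Mdc1 signal was the highest of the 3, the untreated differences were 0.76 (adjusted p = 0.0116) and 0.78 (adjusted p = 0.0131). The first call was lost without the untreated arrays of WT line 3, WT line 4 or Mdc1-/- line 3, with adjusted p of up to 0.0663, and the second without WT line 3 (adjusted p = 0.0570). The second also missed the threshold when only the arrays of the 2 groups were fitted (adjusted p = 0.0525).

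The other 4 Trp53bp1 probe sets did not pass against WT in Mdc1-/- lines. Of these, 1435609_at had 243, 233 and 150 in irradiated and 239, 225 and 163 in untreated Mdc1-/- lines, against 105, 104 and 100 in irradiated and 213, 121 and 108 in untreated WT lines. Irradiated groups were separate and untreated groups overlapped, with differences of 0.89 (adjusted p = 0.0526) and 0.50 (adjusted p = 0.379). 1446100_at, with signals of 40.6 to 220 over the 42 arrays, differed by 0.41 (adjusted p = 0.44) between untreated Mdc1-/- and WT lines. The remaining 2, 1442316_x_at and 1457812_at, exceeded the array median on 9 arrays each and carry little information on level.

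The higher Trp53bp1 level was seen in Mdc1-/- lines and not in H2ax-/- lines, where untreated signals on 1426956_a_at were 1823, 1765 and 1660. The difference of H2ax-/- from WT lines was 0.17 on that probe set (95% interval -0.17 to 0.51) and 0.02 on 1426957_at (-0.33 to 0.36). All 21 pairs of genotypes were also compared, with p-values adjusted jointly over pairs and probe sets, a step added after the values were seen, in which 4.75% of all tests passed. On 1426957_at, all 6 pairs with Mdc1-/- passed, the pair with H2ax-/- among them (H2ax-/- minus Mdc1-/- -0.70, adjusted p = 0.0108). On 1426956_a_at, 3 of the 6 did, those with 53bp1-/-, Scid and WT, and the difference of H2ax-/- minus Mdc1-/- lines was -0.50 (adjusted p = 0.0828). Against the mean of the 4 genotypes with all 3 targeted genes intact (WT, Atm-/-, Scid and Mre11A/A), Mdc1-/- lines were higher by 0.62 (adjusted p = 0.0022) and 0.73 (adjusted p = 0.0004), where 9.43% of all probe sets passed. The rise was not particular to Trp53bp1 in its region. Of 15 measured neighbours on its chromosome, 5 were also called higher than WT in untreated Mdc1-/- lines.

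**Figure D3:**
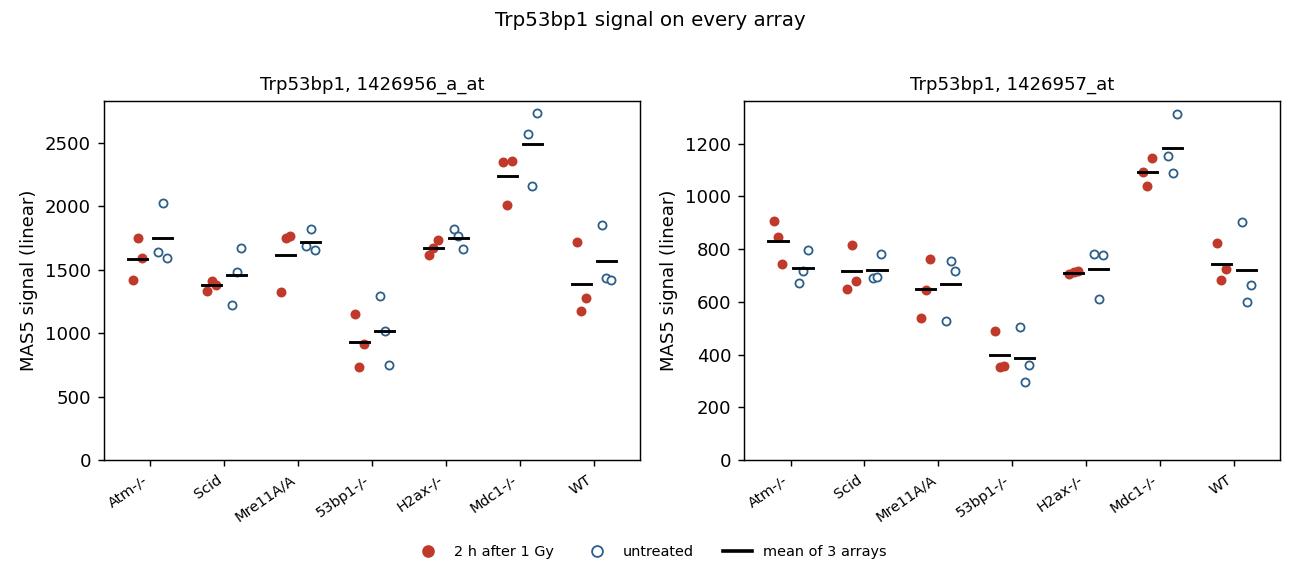
MAS5 signal of Trp53bp1 on 1426956_a_at and 1426957_at for each array, by genotype, with irradiated arrays left of untreated arrays and bars at group means. On 1426957_at the 6 Mdc1-/- arrays lie at 1039 to 1311 and the 6 53bp1-/- arrays at 295 to 505.

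Rif1, which binds phosphorylated 53bp1 and limits end resection, gave opposite differences on different probe sets. On 1437179_at, irradiated signals were 2152, 1978 and 2263 in Mre11A/A, 1817, 2081 and 2384 in 53bp1-/-, 2261, 2493 and 2316 in H2ax-/- and 2013, 2228 and 1692 in Mdc1-/- lines, against 3781, 3550 and 2633 in WT lines. Untreated signals were 2316, 2182 and 2311 in Mre11A/A, 1892, 2218 and 2292 in 53bp1-/-, 2472, 2255 and 2180 in H2ax-/- and 2070, 2383 and 1724 in Mdc1-/- lines, against 3822, 4223 and 2909 in WT lines. On both treatments, every array of these 4 genotypes was below every WT array. Groups without overlap between untreated mutant and WT arrays were common, at 24.8% of all probe sets in Mre11A/A, 25.8% in 53bp1-/-, 28.1% in H2ax-/- and 28.8% in Mdc1-/- lines.

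The untreated differences of 1437179_at from WT were -0.67 in Mre11A/A (adjusted p = 0.0037), -0.76 in 53bp1-/- (adjusted p = 0.00099), -0.65 in H2ax-/- (adjusted p = 0.0048) and -0.82 in Mdc1-/- lines (adjusted p = 0.00027), each with an SE of 0.14. In Atm-/- and Scid lines they were -0.18 and -0.30, and neither passed. The call in Mre11A/A lines was lost without the untreated array of WT line 3 (adjusted p = 0.0504). In fits on the arrays of the 2 groups alone, the calls in Mre11A/A and 53bp1-/- lines missed the threshold (adjusted p = 0.0525 and 0.0527).

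The Rif1 probe set 1442939_at went the other way. Its untreated signals were 967, 702 and 885 in Mre11A/A, 710, 812 and 759 in 53bp1-/-, 806, 781 and 659 in H2ax-/- and 590, 699 and 722 in Mdc1-/- lines, against 513, 570 and 533 in WT lines. Again the 4 mutant genotypes did not overlap WT, but here they were higher. The difference passed in Mre11A/A lines (0.63, adjusted p = 0.0078), and missed the threshold in 53bp1-/- (0.48, adjusted p = 0.0508), H2ax-/- (0.46, adjusted p = 0.063) and Mdc1-/- lines (0.30, adjusted p = 0.248). The Mre11A/A call was lost without the untreated array of line 1 (adjusted p = 0.0623), in a fit on the 2 groups alone (adjusted p = 0.0703) and with the line number as a block across genotypes (adjusted p = 0.110). On irradiated arrays the differences were 0.81 in Mre11A/A (adjusted p = 0.000572), 0.51 in 53bp1-/- (adjusted p = 0.0285), 0.40 in H2ax-/- (adjusted p = 0.105) and 0.49 in Mdc1-/- lines (adjusted p = 0.0285).

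Another Rif1 probe set, 1429491_s_at, did not separate the genotypes, with untreated means of 3009 ± 280 in Mdc1-/-, 3039 ± 77.4 in H2ax-/- and 2940 ± 421 in 53bp1-/- lines, against 3014 ± 353 in WT lines (SD, n = 3 each). The fourth, 1429490_at, varied between 354 and 1597 among untreated arrays. Over the 21 lines, the levels of 1437179_at and 1442939_at were correlated at r = -0.62, and those of 1429491_s_at and 1442939_at at 0.67. These points share arrays and their scaling. No statement about the level of Rif1 transcript as a whole can be made from probe sets that disagree in sign.

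The Rif1 probe sets divided the genotypes into WT, Atm-/- and Scid on one side and Mre11A/A, 53bp1-/-, H2ax-/- and Mdc1-/- on the other, a division noticed after the values were seen and given as a description. On 1437179_at, the 12 untreated arrays of Mre11A/A, 53bp1-/-, H2ax-/- and Mdc1-/- lines were at 1724 to 2472 with a median of 2236, and the 9 arrays of WT, Atm-/- and Scid lines at 2578 to 4223 with a median of 2954. The same division appeared on 1442939_at with overlap, at 590 to 967 (median 740) against 385 to 679 (median 513). The division was not particular to Rif1. In the joint adjustment, pairs of genotypes across the division had 4.90% (Mre11A/A and WT) to 9.96% (Scid and Mdc1-/-) of probe sets called. Pairs within a side had 0.858% (H2ax-/- and Mdc1-/-) to 2.75% (Atm-/- and Scid). An RNA quality measure also shifted along this division, with overlap. The signal ratio of the 3′ to the 5′ Gapdh control was 0.800 to 0.842 in Mre11A/A, 0.815 to 0.850 in 53bp1-/-, 0.823 to 0.844 in H2ax-/- and 0.832 to 0.864 in Mdc1-/- lines, and 0.761 to 0.810 in Atm-/-, 0.766 to 0.819 in Scid and 0.785 to 0.829 in WT lines. Its part in the result was not tested.

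Paxip1, which encodes the second 53bp1-bound factor PTIP, divided the genotypes in a similar way on part of its probe sets. On 1423303_at, untreated signals were 1875, 2091 and 2081 in Mre11A/A, 1906, 1840 and 2035 in 53bp1-/-, 2080, 1862 and 2046 in H2ax-/- and 1748, 2104 and 2134 in Mdc1-/- lines, against 1811, 1704 and 1543 in WT lines. These groups were higher than WT without overlap, except in Mdc1-/- lines, where line 1 fell among the WT values. The differences of 0.26, 0.19, 0.24 and 0.24 did not pass the test on untreated arrays, with adjusted p of 0.25 to 0.42. On irradiated arrays they were 0.41 (adjusted p = 0.026), 0.36 (adjusted p = 0.0496), 0.41 (adjusted p = 0.027) and 0.51 (adjusted p = 0.0036), and all 4 passed. The probe set 1423302_a_at also passed in these 4 genotypes on irradiated arrays, at 0.58, 0.55, 0.49 and 0.52. On 1454943_a_at the irradiated difference passed in Mre11A/A (0.67) and 53bp1-/- lines (0.66) and missed the threshold in H2ax-/- (0.54, adjusted p = 0.0786) and Mdc1-/- lines (0.51, adjusted p = 0.0691). The fourth probe set, 1434363_x_at, did not follow, with irradiated differences of -0.08, 0.003, -0.14 and -0.14 in the same 4 genotypes.

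Scid lines had the lowest Paxip1 signal. On 1423303_at they had 1292, 1074 and 1427 irradiated and 1250, 1182 and 1309 untreated, against 1611, 1547 and 1457 in irradiated and 1811, 1704 and 1543 in untreated WT lines. Each Scid array was below the WT arrays of the same treatment. The share of all probe sets that separate Scid from WT arrays is not given here. Such separation was common in other mutants, at 24.8% of all probe sets in untreated Mre11A/A and 28.8% in untreated Mdc1-/- lines. Those lines also had more probe sets called against WT (4.99% and 7.53%) than Scid lines (0.514%). Their shares are therefore no background for Scid. The untreated differences of Scid from WT lines were -0.43 on 1423303_at (adjusted p = 0.0817) and -0.50 on 1423302_a_at (adjusted p = 0.0627), which missed the threshold. In the joint adjustment over 21 pairs the same differences had adjusted p of 0.028 and 0.017.

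**Figure D4:**
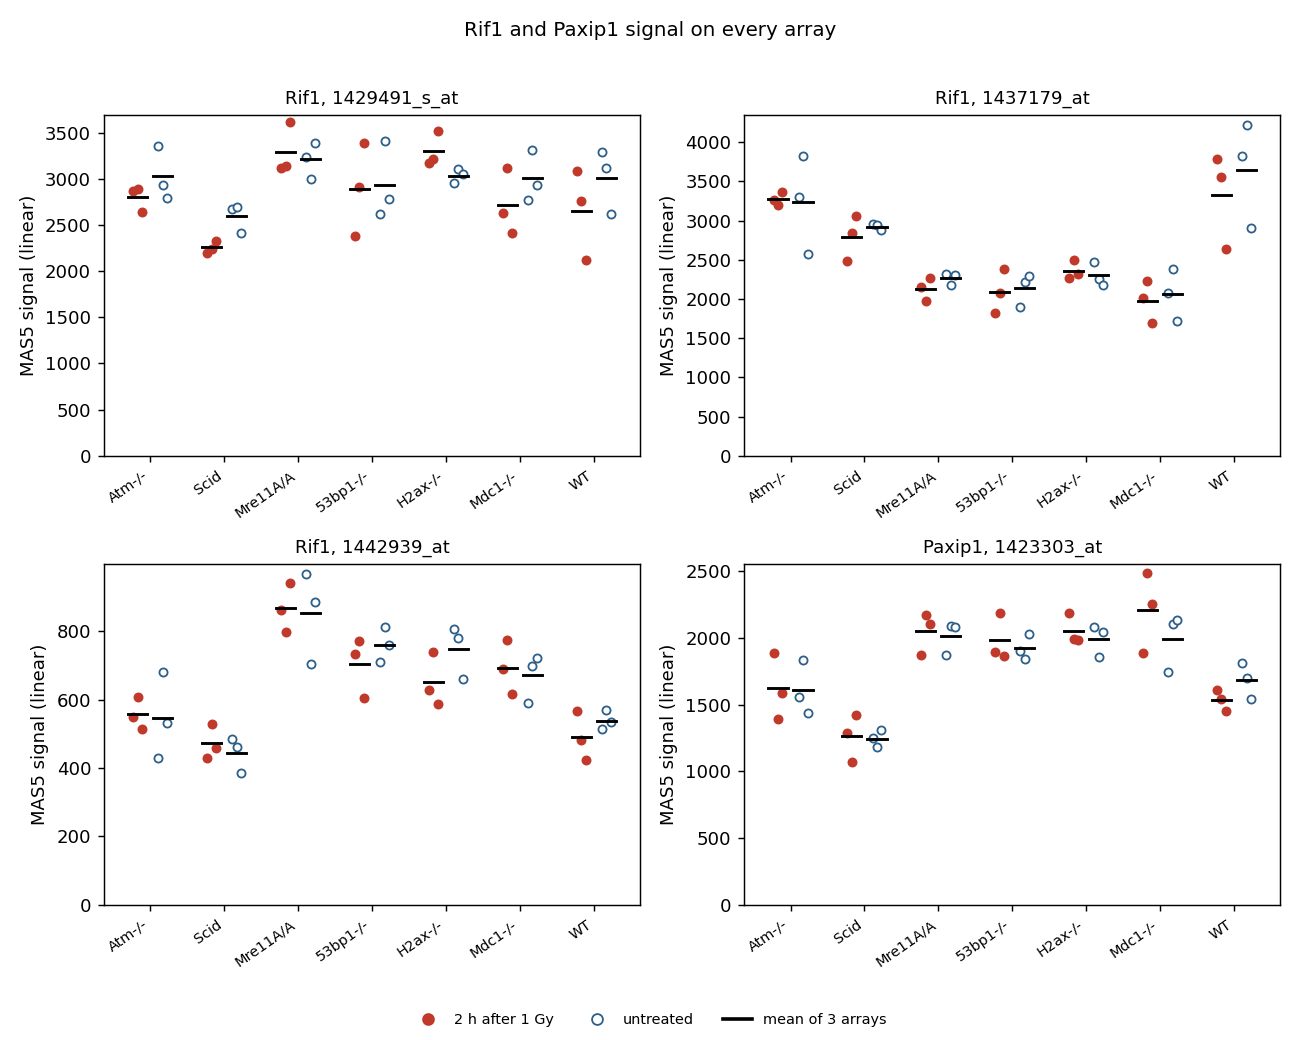
MAS5 signal on each array of Rif1 (1429491_s_at, 1437179_at and 1442939_at) and Paxip1 (1423303_at), by genotype, with irradiated arrays left of untreated arrays and bars at group means. Untreated Mre11A/A, 53bp1-/-, H2ax-/- and Mdc1-/- lines lie at 1724 to 2472 on Rif1 1437179_at and at 590 to 967 on Rif1 1442939_at.

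Usp28, the deubiquitinase that associates with 53bp1, had untreated means of 466 ± 44.8 in 53bp1-/-, 549 ± 54.9 in H2ax-/- and 467 ± 55.9 in Mdc1-/- lines, against 483 ± 63.5 in WT lines (SD, n = 3 each). The groups overlapped, and the differences of -0.04, 0.18 and -0.05 did not pass. Their 95% intervals ended at 0.26, 0.49 and 0.26.

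Across the 7 untreated genotypes together, the F test passed for 11 of 20 member probe sets, beside 19.8% of all probe sets. The 20 include probe sets of H2ax, Mdc1 and Trp53bp1, and each of these genes is missing in 1 of the 7 genotypes. The count of 11 therefore mixes missing genes with partners and is not a count of partners. Rnf8, Usp28 and Rnf168 1455585_at were in the other 9. Measured against the mean of WT, Atm-/-, Scid and Mre11A/A lines, 16 of 60 differences passed (6 higher and 10 lower), where 7.48% of all probe sets passed for 53bp1-/-, 8.31% for H2ax-/- and 9.43% for Mdc1-/- lines. Partner probe sets made up 3 of 14 in 53bp1-/-, 4 of 19 in H2ax-/- and 4 of 19 in Mdc1-/- lines. This comparison added Rif1 1442939_at in 53bp1-/- (0.40) and H2ax-/- lines (0.37), Rnf168 1455586_at in 53bp1-/- lines (-0.44, adjusted p = 0.036), and Paxip1 1423303_at in H2ax-/- (0.30, adjusted p = 0.039) and Mdc1-/- lines (0.30, adjusted p = 0.038). These calls were not stable. Rif1 1442939_at was lost under 4 of 12 alternative settings in 53bp1-/- and 8 of 12 in H2ax-/- lines, Rnf168 1455586_at under 6 of 12, and Paxip1 1423303_at under 5 of 13 in H2ax-/- and 4 of 13 in Mdc1-/- lines. Leaving out 1 array at a time, they were lost without any of 5, 19, 5, 7 and 6 arrays in the same order, and Paxip1 in Mdc1-/- lines without the untreated array of line 2 (0.26, adjusted p = 0.195). The comparisons with WT share the WT arrays, and those with the mean of 4 genotypes share those 4 groups.

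After 1 Gy, no member passed the unpaired test in any genotype, and most changes within a line were small. With irradiated and untreated arrays taken as separate groups, 0 of 140 responses passed in limma and 3 had an unadjusted p under 0.05. Background shares in this fit were 0.00709% in Atm-/-, 0.0744% in Scid, 0% in Mre11A/A, 0.0142% in 53bp1-/-, 0.0425% in H2ax-/-, 0.39% in Mdc1-/- and 0.0815% in WT lines. With each line as a block, 1 of 140 passed and 11 had an unadjusted p under 0.05, beside background shares of 1.28%, 1.71%, 0.0461%, 1.17%, 1.07%, 3.58% and 2.25% in the same order. The 1 call was the H2ax probe set in H2ax-/- lines, at 107, 73.9 and 77.7 after irradiation and 87.9, 18.7 and 51.8 before it in lines 1, 2 and 3. Its changes of 0.24, 1.37 and 0.47 lie at residual signal (mean 0.69, unpaired adjusted p = 0.9999, paired 0.0047), and the call was lost without line 2.

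Direction was shared by many lines for some members, with small steps. The share of all probe sets that moved in the same direction in as many lines is not given here. Rnf168 1455585_at was lower after irradiation in 18 of 21 lines, with a mean change of -0.08 over the 7 genotypes (paired adjusted p = 0.131). Trp53bp1 1426956_a_at was lower in 16 of 21 lines, with a mean of -0.12 (paired adjusted p = 0.061). The Trp53bp1 probe set 1426957_at did not share this, with 12 of 21 lines lower and a mean of 0.02 (paired adjusted p = 0.864). Mdc1 was lower in 16 of 21 lines, at -0.11 (paired adjusted p = 0.18), and Rif1 1429491_s_at in 15 of 21, at -0.07 (paired adjusted p = 0.143). In this mean response, a step added after the values were seen, 0 of 20 members passed in either fit, beside 2.41% of all probe sets unpaired and 10.8% paired. Rnf8 was higher in 11 lines and lower in 10, with changes of -0.30 to 0.34. Usp28 in WT lines fell to 458, 332 and 353 in irradiated cells, against 521, 518 and 409 untreated, a change of -0.34 that did not pass (unpaired adjusted p = 0.883, paired 0.174).

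**Figure D5:**
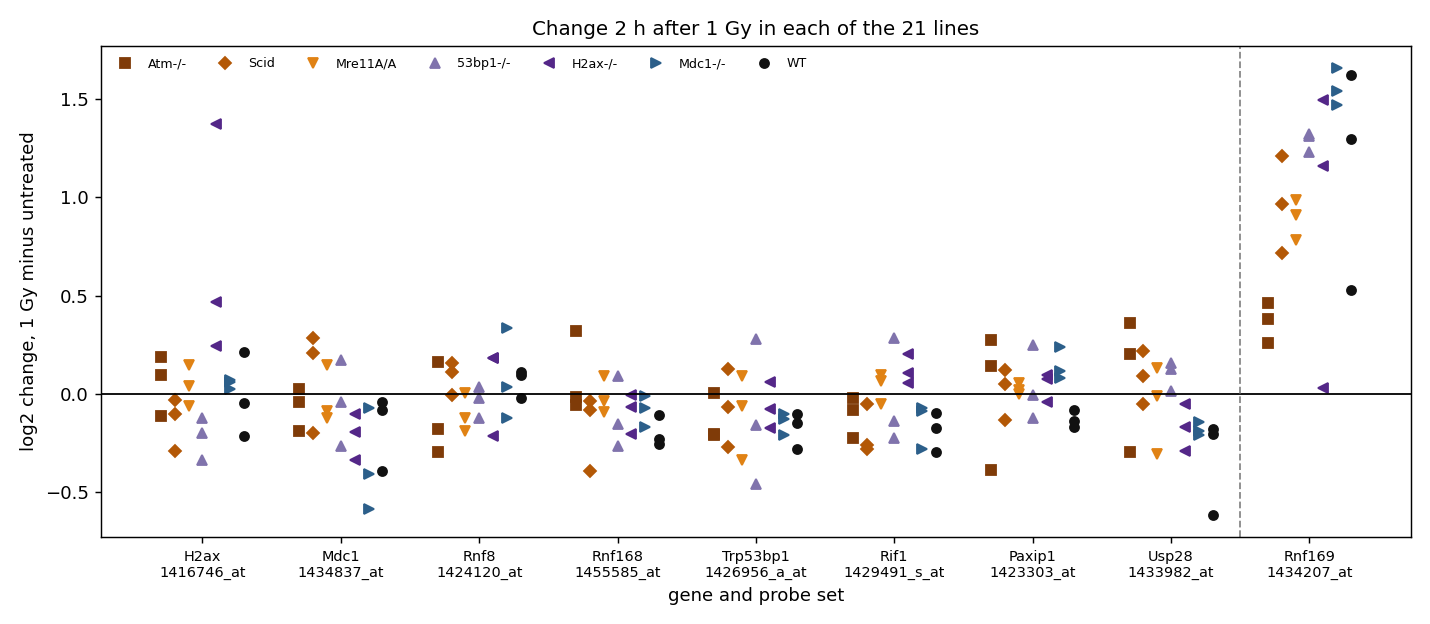
Change of the probe set of highest mean signal for each of the 8 genes in each line, irradiated minus untreated on the log2(signal + 16) scale, by genotype, with the Rnf169 probe set 1434207_at for comparison. Changes of Rnf8 lie between -0.30 and 0.34, and Rnf169 is higher after irradiation in 21 of 21 lines, at 0.03 to 1.66.

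No difference between a mutant's response and the WT response passed the test for any member. Of 120 differences in response, 0 passed unpaired (2 with an unadjusted p under 0.05) and 0 paired (11 unadjusted), where the unpaired background was 0.0106% for Atm-/- lines and 0% for the other 5 mutants, and the paired one 1.01% and 0%. An F test among the 7 responses passed for 0 of 20 (0 unadjusted), beside 0.00709% of all probe sets, and in the paired fit for 0 (2 unadjusted), beside 0.542%. The change after 1 Gy itself is given for 1 gene of the same pathway that is not a member, and then its difference from WT in Atm-/- lines. Rnf169, which encodes a reader of the ubiquitin mark that Rnf168 makes, had a mean signal on 1434207_at of 2674 in irradiated Mdc1-/- lines against 891 untreated, a change of 1.56 (adjusted p = 0.0101 unpaired, 9.43e-06 paired). In WT lines it was 1823 irradiated against 826 untreated (1.15, adjusted p = 0.235 unpaired, 0.0007 paired), and in Atm-/- lines 794 against 613 (0.37, paired adjusted p = 0.34). On another Rnf169 probe set, 1434208_at, the change was 1.21 in WT and -0.02 in Atm-/- lines. The Atm-/- response there differed from the WT response by -1.23 (adjusted p = 0.717 unpaired, 0.0205 paired). On 1434207_at that difference was -0.79 (paired adjusted p = 0.139).

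Genes of the surrounding pathway were counted from lists of related factors. Among 26 probe sets of 12 readers and writers of break chromatin, 4 were higher and 1 lower in 53bp1-/-, 3 higher and 1 lower in H2ax-/-, and 3 higher and 2 lower in Mdc1-/- lines, with medians of 0.03, 0.03 and 0.12. The shares of all probe sets called in either direction, 5.23%, 5.72% and 7.53%, apply to these counts and to those of the lists that follow. Atm, the kinase that phosphorylates H2ax, was lower on 1421205_at, at a mean of 311 in H2ax-/- and 292 in Mdc1-/- lines, against 1573 in WT lines (-2.28 and -2.36). No other Atm probe set was called in these lines, so the values describe that probe set and not the Atm transcript as a whole. Chd4, a chromatin remodeller, was higher on 1451295_a_at in 53bp1-/- lines, at 3081 against 1528 in WT lines (1.00), and by 0.90 in H2ax-/- and 0.84 in Mdc1-/- lines. Another Chd4 probe set, 1436343_at, was lower in Mdc1-/- lines (-0.75, adjusted p = 0.0118), so the Chd4 probe sets disagreed in sign there. Mcph1 on 1439115_at was called higher in 53bp1-/-, H2ax-/- and Mdc1-/- lines (0.87, 0.85 and 1.00). Topbp1 on 1458480_at was too (1.02, 1.09 and 1.08). In Mre11A/A lines, which have all 3 of these factors, 4 probe sets of this list were higher and 1 lower, beside 4.99% of all probe sets called. Calls in this list were therefore not particular to lines missing a factor. Which genes were called in Mre11A/A lines is not given here.

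Among 53 probe sets of 20 genes of the ubiquitin and methylation arm, 1 was higher and 4 lower in 53bp1-/-, 3 and 6 in H2ax-/-, and 3 and 5 in Mdc1-/- lines, with medians of -0.08, -0.07 and -0.08. Kmt5a, the histone methyltransferase that makes the mono-methyl mark at the residue 53bp1 reads, had probe sets of opposite sign in Mdc1-/- lines. The differences were -1.76 on 1441557_at, -2.05 on 1459779_s_at, 0.83 on 1426406_at and 0.63 on 1460687_at. The first 2 probe sets had mean signals of 67.2 and 19.1 in untreated Mdc1-/- lines, near or below the array medians. That of 1426406_at was 4430. Trip12 on 1443125_at was called lower in 53bp1-/-, H2ax-/- and Mdc1-/- lines (-1.34, -1.59 and -1.50). Abraxas1 on 1453336_at was too (-0.39, -0.40 and -0.41). In Mre11A/A lines, 2 probe sets of this list were higher and 9 lower, so calls here were not particular to lines missing a factor either. Of 13 probe sets of 6 effectors and regulators of 53bp1, 0 passed in 53bp1-/- lines, and Mad2l2, the shieldin-associated adaptor also called Rev7, was the 1 higher in H2ax-/- (1.05, adjusted p = 0.0189) and Mdc1-/- lines (0.88, adjusted p = 0.047).

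Of 12 probe sets of 6 other H2A histone genes, 0 passed in 53bp1-/- and 0 in H2ax-/- lines, so no other H2A transcript measured here was called higher where H2ax was missing. In Mdc1-/- lines, Macroh2a1 was higher (0.50), and H2aw (-0.87) and H2aj on 1440252_at (-1.76) were lower. Of 26 probe sets of 11 proliferation genes, 0 passed in 53bp1-/- and H2ax-/- lines and 2, both of Mcm5, were higher in Mdc1-/- lines (7.53% of all probe sets passed). Against the mean of 4 genotypes, 2 were lower in 53bp1-/-, 2 higher and 1 lower in H2ax-/-, and 1 higher in Mdc1-/- lines.

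Genes whose levels followed a member most closely over the lines were found among 12345 genes by Pearson's r of line means, as a description over points that share arrays. Trp53bp1 levels followed those of Hypk (r = 0.86) and Ptprv (0.85) over the 18 lines that have the gene. Hypk is a neighbour of Trp53bp1 on its chromosome and was itself called higher in untreated Mdc1-/- lines (1.06). Paxip1 followed Taf4 (0.94) and Elavl1 (0.92), Rif1 on 1429491_s_at followed Cenpi (0.89) and Ckap5 (0.82), and Rnf168 on 1455585_at followed Bmi1 (0.80), each over 21 lines. Usp28 followed Mier2 (0.76) and Rnf8 Tbc1d31 (0.77) over 21 lines, and Mdc1 followed Ap3b2 (0.78) over 18. H2ax followed Irf4 at 0.85 over 18 lines, which was 0.59 without the 2 lines of most extreme H2ax level.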

How the data were processed

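RNA of the 42 cultures was hybridised to Affymetrix arrays. Per the submitters' processing notes the authors used MAS5, whose version is not given in the sources used here, and the deposited values are linear signal intensity values. Groups came from the sample titles. The log2(intensity + 16) of 28217 probe sets above their array's median on at least 3 arrays, controls removed, was fitted with limma 3.58.1 in R 4.3.3 (lmFit, eBayes with an intensity trend, 14 group means, 28 residual degrees of freedom), two-sided, with Benjamini-Hochberg adjustment within each comparison and a threshold of 0.05. Self-tests on simulated data were checked first. Figures used matplotlib 3.10.9.

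Untreated and irradiated arrays of one number share a cell line. Their deviations from group means correlated at 0.323 to 0.599 in all 21 pairs, against -0.420 to -0.0404 between unlike numbers, so the paired fit (a block per line, leaving 14 residual degrees) is given for responses where it changes a call. Across genotypes, same-numbered arrays correlated at -0.111 to 0.125, so numbers do not pair genotypes.

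Members and gene lists were chosen with earlier results of these data known. Named members are those called in any comparison and the probe set of highest mean for each gene. Other genes named are those of up to 3 calls of smallest p in each list, taken again for the paired responses. The lists are readers and writers, ubiquitin and methylation arm, 53bp1 effectors, proliferation and other H2A. Up to 2 genes of highest correlation with each member are also named. Mcph1, Topbp1, Trip12 and Abraxas1 were named because a probe set of each was called in all 3 of 53bp1-/-, H2ax-/- and Mdc1-/- lines. They were not picked by smallest p, and other called genes of those lists with smaller p are not named. Rnf169 values in WT and Atm-/- lines, the irradiated-array levels, the 21 pairs of genotypes, the mean response, the neighbours of Trp53bp1 and the division of genotypes on Rif1 were chosen after values were seen. The number of arrays limits the precision. Alternatives covered the constant added, the filter, the scaling, the probe set per gene, the blocks, the arrays fitted and leaving out each array.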

Additional observations from a re-analysis of the deposited data

How the results depend on the processing

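No result in the alternatives reversed its direction. The count of untreated differences from WT, 13 in the main analysis, was 4 with 1 probe set a gene, 25 with line means over both treatments, 8 with the number as a replicate block across genotypes, 5 with only the arrays of the groups compared, 23 on irradiated arrays in place of untreated ones, and 9 to 15 without 1 array. The count against the mean of 4 genotypes, 16, was 10 with no filter on low probe sets, 6 with 1 probe set a gene, 10 with only the arrays of the groups compared, 23 with line means over both treatments and 12 to 17 without 1 array. The count in the F test among 7 genotypes, 11, was 4 with 1 probe set a gene and 11 without any 1 array. With line as a random replicate block (consensus correlation 0.452), these counts were 12, 15 and 11. The count of responses, 0, was 1 with line as a replicate block. It was 0 without any 1 array unpaired, and 0 to 1 without 1 line paired. The counts of differences in response and of the F test among responses were 0, 0 without any 1 array, and 0 to 1 without 1 paired line. The cause of these changes was not tested, except that 1 probe set a gene leaves fewer member probe sets. With the number as a block, the Trp53bp1 calls in Mdc1-/- lines against WT were lost (adjusted p = 0.123 on 1426956_a_at and 0.0922 on 1426957_at). The Trp53bp1 1435609_at call in 53bp1-/- lines was lost with line means, with the 2 groups alone and on irradiated arrays.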

Other observations

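Neighbours of Trp53bp1 on its chromosome were read in Mdc1-/- lines after the Trp53bp1 result was known, as values only. Of 20 neighbouring protein-coding genes in RefSeq order, 15 were measured, and 5 were called higher and 0 lower against untreated WT lines, beside 3.69% of all probe sets called higher, with a median difference of 0.38. The 5 were Hypk (1.06), Serf2 (0.95), Lcmt2 (0.87), Adal (0.77) and Tubgcp4 (0.73). Tubgcp4, a gamma-tubulin complex gene that lies next to Trp53bp1, had a mean signal of 1777 in Mdc1-/- and 1067 in WT lines.

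Among the other genes of the lists that passed the paired test after irradiation were Ppm1d, a phosphatase that acts on break-response proteins, on 1449092_at in Mdc1-/- (0.80), 53bp1-/- (0.77) and Scid lines (0.73), and H2aj on 1424772_at in Mdc1-/- (0.90), Scid (0.83) and 53bp1-/- lines (0.81). In WT lines Ppm1d 1449092_at rose by 0.49 (paired adjusted p = 0.0613), and 1 probe set of the other H2A genes passed the paired test. The genotypes named are those of smallest p and not the only ones with a rise. In this fit 3.58% of all probe sets passed in Mdc1-/-, 1.17% in 53bp1-/-, 1.71% in Scid and 2.25% in WT lines. Of the 26 probe sets of readers and writers and 12 of other H2A genes, 1 passed the unpaired response test, in Mdc1-/- lines.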
